A study of Arabidopsis thaliana with 6 samples.

Results

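Plants keep iron within narrow limits, because the metal is needed for photosynthesis, respiration and DNA synthesis and is toxic when free. When iron is short, *Arabidopsis* raises genes that secrete iron-mobilizing coumarins from roots, make the metal chelator nicotianamine and release iron from the vacuole. When iron is plentiful, these genes are lower and genes for iron storage and iron-using enzymes are raised. Described here are 9 genes from both sides of this response, of 13567 genes with a named probe set, in 12 day-old seedlings with and without the F-box gene *FBS1*. There were 6 genes known to be induced by iron deficiency: *NAS2* (AT5G56080), *NAS4* (AT1G56430), *ZIF1* (AT5G13740), *NRAMP4* (AT5G67330), *CYP82C4* (AT4G31940) and *F6'H1* (AT3G13610). The other 3, *NAS3* (AT1G09240), *FER4* (AT2G40300) and *FSD1* (AT4G25100), are known to be higher when iron is sufficient. Not all of them transport, chelate or store iron, since *F6'H1* and *CYP82C4* encode enzymes of coumarin synthesis and *FSD1* a superoxide dismutase.

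The 9 genes were chosen by name, with their difference between wild type and mutant on these same arrays already known. A set of 8 is tied to probe sets through the study's lists of genes called different between the genotypes, and only *F6'H1* through the platform annotation. Their differences between genotypes are therefore given as descriptions. The calls that the fit across all probe sets made on them are printed as counts, are no independent test of these genes, and support no statement about iron genes at large. Relatives that did not differ may lack a named probe set here.

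RNA was measured on 6 Affymetrix ATH1 arrays, 3 of wild type (WT) and 3 of *fbs1-1*, each from a separate sample of pooled whole seedlings. All seedlings were grown on MS medium for 5 days at 24 °C and then for 7 days at 10 °C in long days, so that chilling was shared by both groups and no array shows either line without it. The labels name no difference in iron supply, and the study reports no measurement of iron in the seedlings. The *fbs1-1* line is a single insertion line with a transposon in the first intron of *FBS1*, and both lines are given as No-0. The sample labels also carry the name Nd0 for the WT arrays, which they do not explain, so that differences due to *FBS1* cannot be told apart from other differences between the lines.

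Values are log2 intensities per probe set from RMA, a method that subtracts background, brings the arrays to a common distribution and combines the probes of a set. Array medians were 2.62 to 2.72, between 40.2% and 40.8% of values on an array were under 2, and the lowest correlation between arrays of a genotype was 0.99. No probe set is tied to *FBS1* by the tables used here, so that its loss could not be checked. For the tissue, the leaf gene *RCA* was between 11.47 and 11.64 and the root hair gene *EXP7* between 2.74 and 3.20 on the 6 arrays, the only markers on a list of 11 leaf and a list of 12 root genes with a named probe set. *EXP7* was above its highest WT value on each *fbs1-1* array, by a log2 difference of 0.23 in the means (adjusted p = 0.377 from limma), and its part in the results was not tested. In RNA from whole seedlings, fewer cells of a type and less RNA per cell cannot be told apart.

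Each of the 6 deficiency-induced genes was higher on all 3 *fbs1-1* arrays than on any WT array, and each of the 3 sufficiency-induced genes was higher on all 3 WT arrays. The difference, as WT minus *fbs1-1* on the log2 scale, ran from -2.12 to -0.59 in the first class (median -1.19) and from 0.91 to 1.12 in the second (median 1.06). The median over all 22746 probe sets tested was -0.008. Groups also did not overlap for 8.94% of all probe sets in favor of WT and for 10.8% in favor of *fbs1-1*.

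**Figure D1:**
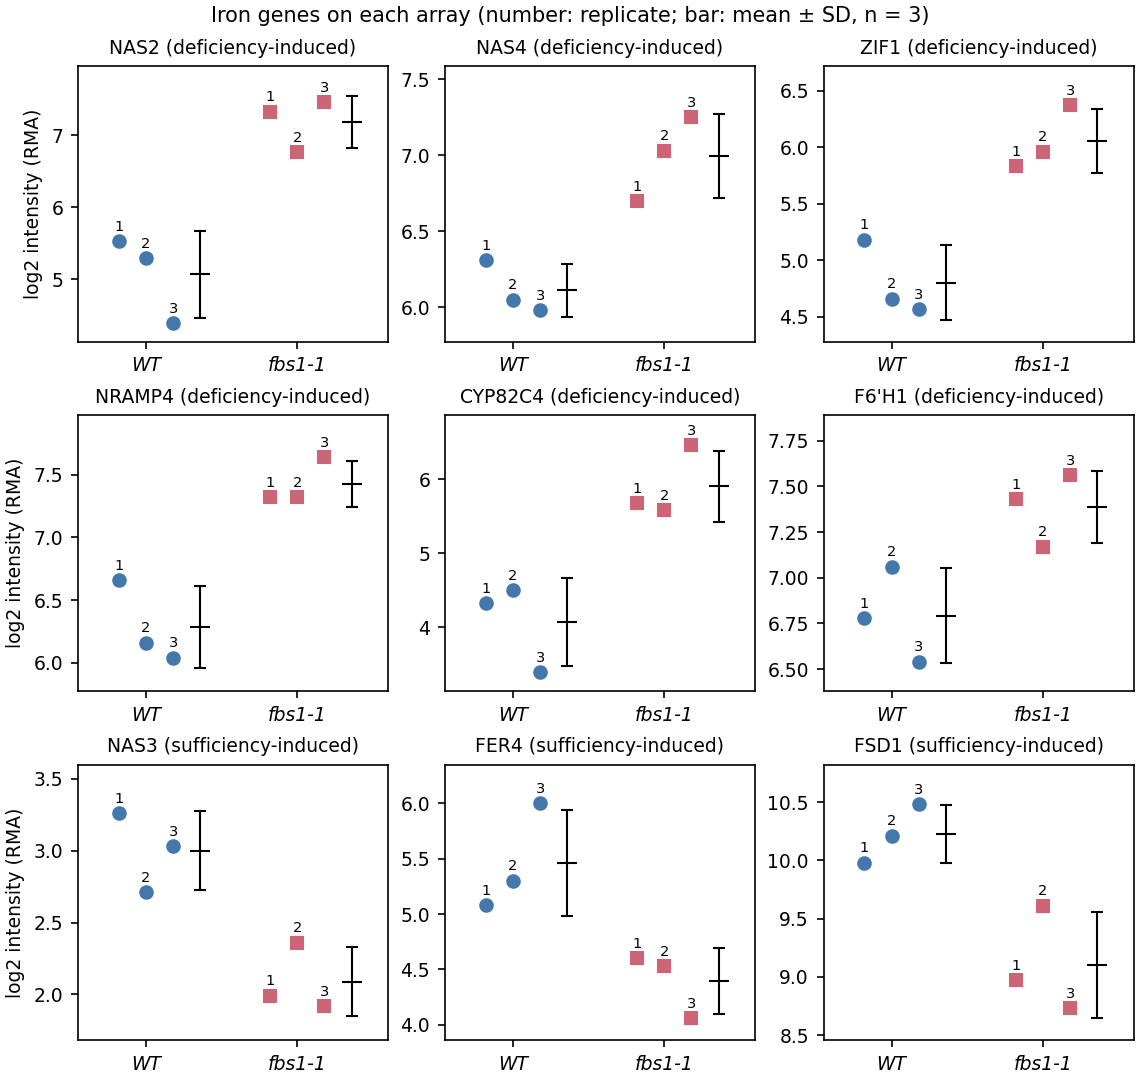
Log2 intensity of the 9 iron genes on each array, with WT as circles, *fbs1-1* as squares, the replicate number at each point, and the mean with its SD (n = 3) beside them. The vertical axes differ between genes and do not start at 0. The squares lie above the circles for the 6 deficiency-induced genes and under them for the 3 sufficiency-induced genes.

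Nicotianamine synthases join S-adenosylmethionine molecules into nicotianamine, a small chelator that carries iron, zinc and copper in phloem and between compartments. *NAS2* had the largest difference of the 9 genes. It was at 5.53, 5.29 and 4.39 on WT replicates 1, 2 and 3, and at 7.33, 6.77 and 7.46 on *fbs1-1* replicates 1, 2 and 3. The closest arrays of the 2 groups were 1.24 apart, with WT replicate 3 the lowest. The mutant mean was 4.34-fold the WT mean, at 7.19 ± 0.37 against 5.07 ± 0.60 (log2, SD, n = 3) (log2 difference -2.12, standard error 0.29).

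*NAS4*, a close relative induced by iron deficiency in leaves and roots, was at 6.31, 6.05 and 5.98 in WT and at 6.70, 7.03 and 7.25 in *fbs1-1*. The mutant mean was 1.84-fold the WT mean, at 6.99 ± 0.27 against 6.12 ± 0.17 (log2 difference -0.88, standard error 0.15). WT replicate 1 and *fbs1-1* replicate 1 lay closest, 0.39 apart. *NAS4* lies on chromosome 1 as *FBS1* does, with 331 protein-coding genes between them in the TAIR10.1 gene order.

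*NAS3*, the member of the family that is higher when iron is sufficient, went the other way. It was at 3.26, 2.71 and 3.03 in WT and at 1.99, 2.36 and 1.92 in *fbs1-1*. The WT mean was 1.88-fold the mutant mean, at 3.0 ± 0.27 against 2.09 ± 0.24 (log2 difference 0.91, standard error 0.17). On 2 *fbs1-1* arrays its value fell under 2, as did 40.2% to 40.8% of all values on an array, and no detection calls were used. *NAS1* has no probe set named by the tables used here, so that the family is described by 3 of its 4 members.

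ZIF1 moves nicotianamine into the vacuole and so holds zinc there, and NRAMP4 releases stored iron from the vacuole into the cytosol. *ZIF1* was at 5.18, 4.66 and 4.57 in WT and at 5.83, 5.96 and 6.37 in *fbs1-1*. This was 2.38-fold higher in *fbs1-1*, with means of 6.05 ± 0.28 against 4.80 ± 0.33 (log2 difference -1.25, standard error 0.19). *NRAMP4* was at 6.66, 6.16 and 6.04 in WT and at 7.32, 7.32 and 7.64 in *fbs1-1*. It was 2.21-fold higher in *fbs1-1*, with means of 7.43 ± 0.18 against 6.29 ± 0.33 (log2 difference -1.14, standard error 0.17). For both transporter genes WT replicate 1 was the highest WT array and *fbs1-1* replicate 3 the highest of all, and the gap between the groups was 0.65.

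F6'H1 makes the precursor of scopoletin, S8H converts scopoletin to fraxetin, and CYP82C4 oxidizes fraxetin to sideretin, and these coumarins are secreted by roots to dissolve and reduce iron. *F6'H1*, the first of the 3 steps, was at 6.78, 7.06 and 6.54 in WT and at 7.43, 7.17 and 7.56 in *fbs1-1*. It had the smallest difference of the 9 genes, 1.51-fold higher in *fbs1-1*, at 7.39 ± 0.20 against 6.79 ± 0.26 (log2 difference -0.59, standard error 0.16). WT replicate 2 and *fbs1-1* replicate 2 were only 0.11 apart. *CYP82C4*, the last step, was at 4.32, 4.50 and 3.39 in WT and at 5.68, 5.58 and 6.46 in *fbs1-1*. It was 3.57-fold higher in *fbs1-1*, with means of 5.91 ± 0.48 against 4.07 ± 0.60 (log2 difference -1.84, standard error 0.31).

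The step between them, *S8H*, is not among the 9 genes. It was at 4.16, 4.57 and 3.36 in WT and at 5.11, 4.94 and 6.28 in *fbs1-1*, so that its groups also did not overlap. Its mean was 2.67-fold higher in *fbs1-1* (log2 difference -1.41, standard error 0.39), which missed the threshold (adjusted p = 0.108 from limma over all probe sets, and from 0.0803 to 0.264 over 13 alternatives) but passed by rank products (estimated rate of false predictions 0.00372). WT replicate 3 was the lowest and *fbs1-1* replicate 3 the highest array for both *S8H* and *CYP82C4*. *F6'H2*, a relative of *F6'H1*, was under 2 on all 6 arrays, with means of 1.58 in WT and 1.39 in *fbs1-1* (adjusted p = 0.442 from limma).

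Ferritins are hollow protein shells that store iron in plastids and mitochondria, and *FER4* encodes the member found in both. *FER4* was at 5.08, 5.30 and 6.0 in WT and at 4.60, 4.53 and 4.06 in *fbs1-1*. The WT mean was 2.09-fold the mutant mean, at 5.46 ± 0.48 against 4.40 ± 0.30 (log2 difference 1.06, standard error 0.24). WT replicate 3 was the highest array and *fbs1-1* replicate 3 the lowest, and the groups were 0.48 apart. The other ferritin genes, *FER1*, *FER2* and *FER3*, have no probe set named by the tables used here.

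*FSD1* encodes an iron superoxide dismutase, which removes superoxide and is known to be raised when copper is scarce and lowered when iron is scarce. *FSD1* was at 9.98, 10.21 and 10.48 in WT and at 8.97, 9.61 and 8.73 in *fbs1-1*. It was 2.17-fold higher in WT, at 10.22 ± 0.25 against 9.10 ± 0.45 (log2 difference 1.12, standard error 0.22). Among the *fbs1-1* arrays, replicate 2 was the highest, 0.37 below the lowest WT array.

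**Figure D2:**
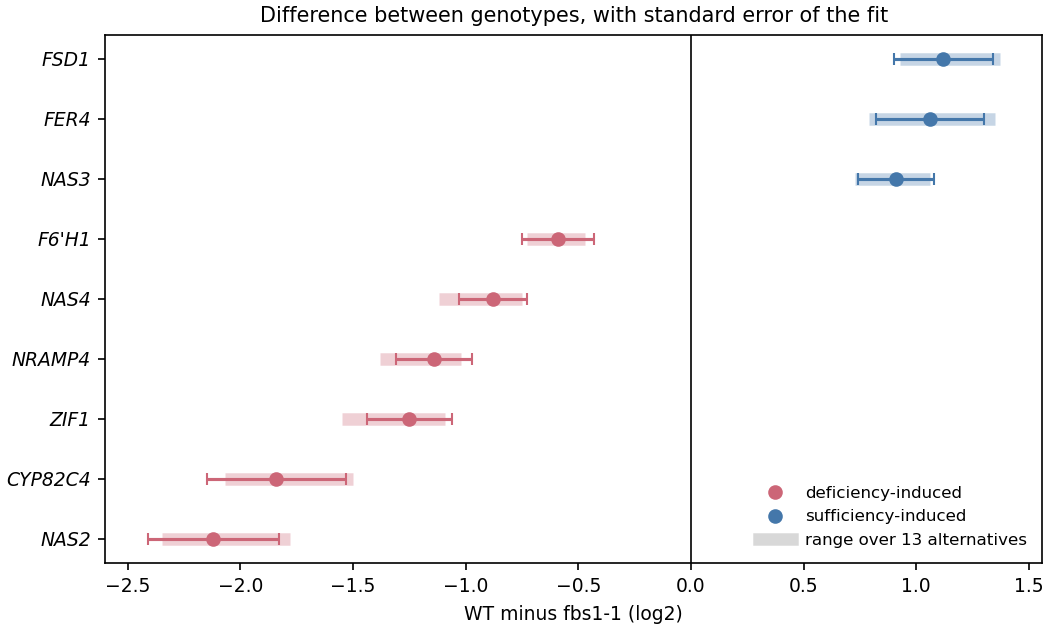
Difference between WT and *fbs1-1* for each of the 9 iron genes (log2), with the standard error of the fit as a line and the range over 13 alternative analyses as a shaded bar. All 6 deficiency-induced genes lie below 0, between -2.12 and -0.59, and all 3 sufficiency-induced genes above it, between 0.91 and 1.12.

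In the fit across all probe sets (limma, adjusted p under 0.05), 5 of the 6 deficiency-induced genes were called higher in *fbs1-1* and 2 of the 3 sufficiency-induced genes higher in WT, where *F6'H1* and *FER4* did not pass. Over all probe sets, 1.68% were called higher in *fbs1-1* and 1.57% higher in WT. By rank products, the test of the study's methods, 5 and 3 of the genes were called, against 1.15% and 1.18% of all probe sets. Since the genes were picked from this contrast, nothing is read from these counts. The counts varied when single arrays were left out: without *fbs1-1* replicate 3, limma called 1 gene (*NAS2*) higher in *fbs1-1* and 0 higher in WT. Without WT replicate 2 it called 2 and 1, without WT replicate 3 it called 4 and 0, and without *fbs1-1* replicate 1 it called 5 and 0. It called 5 and 2 without WT replicate 1, and 4 and 2 without *fbs1-1* replicate 2. Calls over all probe sets also fell, to 140 higher in *fbs1-1* and 142 higher in WT without *fbs1-1* replicate 3, against 382 and 358 with all arrays.

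By the array numbers in the labels, replicate 1 of each genotype was numbered apart from the other 4 arrays, and the labels do not say what this stands for. Since the groups of the 9 genes do not overlap, the direction is fixed in any subset of arrays, and only the size of the difference can vary. The difference was smaller in the first set for 7 of the 9 genes. For *NAS4* it was -0.39 in the first set and -1.12 in the second, for *ZIF1* -0.65 and -1.55, for *NRAMP4* -0.66 and -1.38, and for *FER4* 0.48 and 1.35. *NAS2* (-1.80 and -2.27), *CYP82C4* (-1.37 and -2.07) and *FSD1* (1.01 and 1.18) had the same order of the sets. *F6'H1* (-0.65 and -0.56) and *NAS3* (1.27 and 0.73) had the larger difference in the first set, which holds 1 array per genotype and so has no error of its own.

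The mean log2 value of the 6 deficiency-induced genes was 5.80, 5.62 and 5.15 on WT replicates 1, 2 and 3, and 6.72, 6.64 and 7.12 on *fbs1-1* replicates 1, 2 and 3. For the 3 sufficiency-induced genes it was 6.11, 6.07 and 6.50 in WT and 5.19, 5.50 and 4.90 in *fbs1-1*. The first mean minus the second was -0.70 ± 0.56 (SD, n = 3) in WT and 1.63 ± 0.55 in *fbs1-1*. Within an array, this quantity sets different probe sets against each other, so that only its change between arrays has a meaning. It was lowest on WT replicate 3 (-1.35) and highest on *fbs1-1* replicate 3 (2.22).

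**Figure D3:**
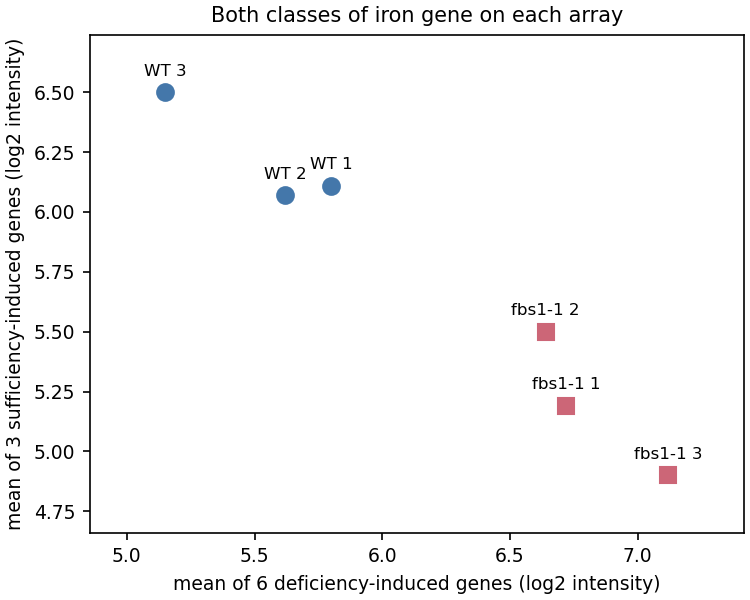
Mean log2 intensity of the 6 deficiency-induced genes (horizontal axis) against that of the 3 sufficiency-induced genes (vertical axis) on each array, WT as circles and *fbs1-1* as squares. WT replicate 3 is at 5.15 and 6.50, and *fbs1-1* replicate 3 at the opposite end, at 7.12 and 4.90. Neither axis starts at 0.

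Replicates of a genotype also differed among themselves. Calls of a difference between genotypes depend on this spread too, so that the choice of the genes is not independent of it. Pooled over the 2 genotypes, the SD within a genotype was larger for each of the 9 genes than the median of 0.144 over all probe sets, from 0.23 (*NAS4* and *F6'H1*) to 0.54 (*CYP82C4*). That median takes in the dim probe sets, and no median over probe sets of like level was computed, so that nothing particular to these genes is read from it. On *fbs1-1* replicate 3 all 6 deficiency-induced genes were above their *fbs1-1* mean and all 3 sufficiency-induced genes below it. On WT replicate 3 the 6 were all below their WT mean and the 3 all above it. On *fbs1-1* replicate 2, 5 of the 6 were below and the 3 were above, and on WT replicate 1, 5 of the 6 were above and 2 of the 3 below. WT replicate 2 and *fbs1-1* replicate 1 were less uniform, with 3 and 2 of the 6 above the mean.

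The deviations from the genotype mean were positively correlated for all 15 pairs of deficiency-induced genes (median Pearson's r = 0.67, from 0.17 to 0.97, over 6 arrays). *ZIF1* and *NRAMP4* were the closest pair (r = 0.97), followed by *NAS4* with *ZIF1* (r = 0.91). *F6'H1* followed *CYP82C4* (r = 0.88) more than *NAS4* (r = 0.17). Between the classes, r was negative for all but 3 of 18 pairs (median -0.71), with *CYP82C4* and *FER4* at -0.93. The 3 exceptions were *NAS3* with *ZIF1*, *NAS4* and *NRAMP4* (r from 0.23 to 0.26), and among the sufficiency-induced genes *NAS3* followed *FER4* least (r = 0.10). These values rest on 6 deviations with 4 free values, and all genes share the same arrays and samples. Between the 6 deficiency-induced genes and each of 22737 other probe sets, the median r was 0.04, with 52.3% of values above 0 and 11.3% at or above 0.67. The mean deviation of the 6, a measure unlike the pairs of single genes above, was also followed by other genes. Of the genes on the lists, *MTP8* (r = 0.98), *NRAMP5* (0.90), *S8H* (0.89) and *F6'H2* (0.82) followed it most. None of these was called by limma, and *NRAMP5* and *F6'H2* were under 2 on all 6 arrays. *MIT1* (-0.84) and *BHLH104* (-0.80) went the other way most, and no such value was computed over all probe sets. Nothing particular to the genes described is read from these values, which are given without a test.

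**Figure D4:**
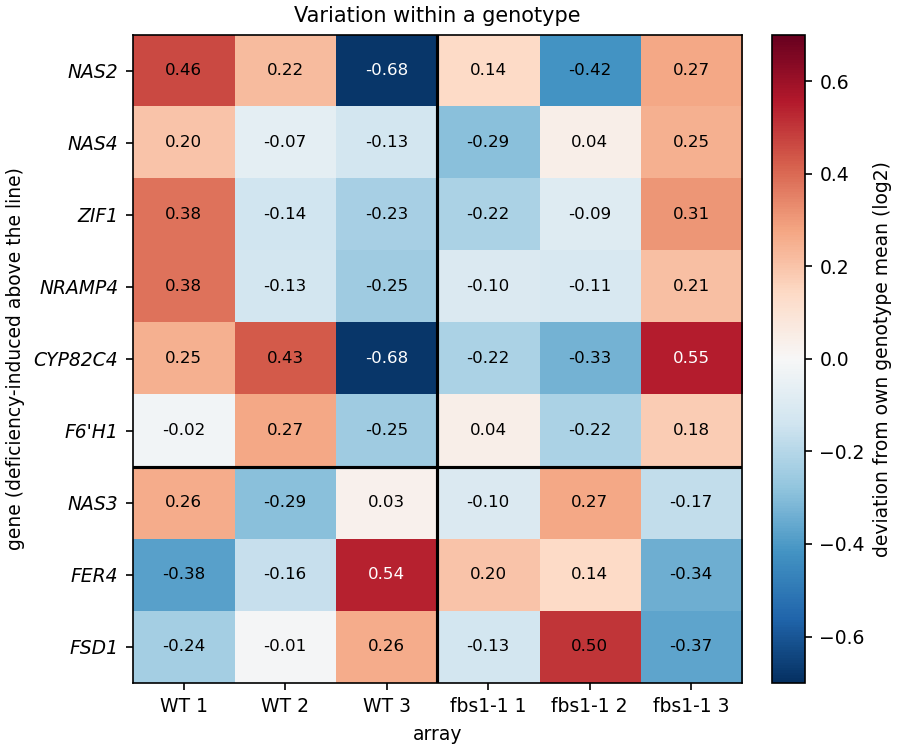
Deviation of each iron gene from the mean of its own genotype on each array (log2, colour and number), with the deficiency-induced genes above the horizontal line and the arrays of WT left of the vertical line. On WT replicate 3 the upper genes are below 0 (to -0.68) and the lower genes above it (to 0.54), and on *fbs1-1* replicate 3 the signs are turned (to 0.55 and -0.37).

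Of 106 further genes of iron, copper and zinc handling on 6 lists, 29 have a named probe set. Of these 29, limma called 5 higher in *fbs1-1* and 2 higher in WT, with a median log2 difference of -0.05. Rank products called 8 and 2, the added genes being *S8H*, *BHLH101* and *PYE*. All 6 that are named only through the study's lists of differing genes were called by limma. Of the 23 named by the platform annotation, limma called 1 (*IMA1*), where 2.78% of all probe sets named that way were.

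Among the transport genes, 4 of 27 could be named and 1 was called, which is named only through the study's lists. *NRAMP3*, which encodes the partner of NRAMP4 in releasing vacuolar iron, was at 4.64, 4.63 and 4.69 in WT and at 5.54, 5.28 and 5.87 in *fbs1-1*. It was 1.88-fold higher in *fbs1-1* (log2 difference -0.91, adjusted p = 0.0141 from limma), a call that was lost without WT replicate 2 (adjusted p = 0.0598) or 3 (0.0522) and with only the 4 arrays of the second set (0.0701). *MTP8*, a vacuolar manganese and iron transporter gene, differed by -0.39 (log2, adjusted p = 0.484), with overlapping groups. *VTL3* and *NRAMP5* had means under 2 in both genotypes. Of the 19 genes of iron reduction, uptake and coumarin secretion, 4 could be named and 0 were called by limma (and 1, *S8H*, had an unadjusted p under 0.05), while *IRT1* and *FRO2*, the root iron transporter and reductase genes, were not analysed here. *COSY*, of coumarin synthesis, differed by 0.04 (log2, adjusted p = 0.911), and the beta-glucosidase gene *BGLU42* by -0.37 (adjusted p = 0.383).

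Of the 17 regulators of iron deficiency, 12 could be named, of which 3 were called higher in *fbs1-1* and 0 higher in WT, with a median log2 difference of -0.26. Among the 10 of them named by the platform annotation, 1 was called and the median was -0.04, since *BHLH039* and *BTS* are named only through the study's lists of differing genes. Over all probe sets, 1.68% were called higher in *fbs1-1*. Of those named by the platform annotation, 2.78% were called in either direction. *BHLH039*, a transcription factor gene that activates uptake together with FIT, was between 3.08 and 3.91 in WT and between 6.60 and 7.17 in *fbs1-1*, where its mean was 10.5-fold that of WT (log2 difference -3.40, adjusted p = 0.000205 from limma). *IMA1*, whose peptide promotes the response, was between 4.08 and 5.39 in WT and between 6.85 and 7.39 in *fbs1-1*, a 6.01-fold higher mean (log2 difference -2.59, adjusted p = 0.00362 from limma). *BTS*, which encodes a ubiquitin ligase that restrains the response, was at 6.18, 6.19 and 6.18 in WT and at 7.61, 7.73 and 8.08 in *fbs1-1* (log2 difference -1.62, adjusted p = 0.000427 from limma). *PYE*, a repressor of *NAS4*, *ZIF1* and other genes in roots, had a log2 difference of -0.96 and overlapping groups (adjusted p = 0.226 from limma). It passed with only the second array set (adjusted p = 0.0041) and without WT replicate 1 (0.00323), the array on which it was at 4.45 against 3.20 and 2.92 on the other WT arrays. *BHLH101*, under 2 on 4 of the arrays, differed by -1.46 (log2) and did not pass (adjusted p = 0.128), but passed without *fbs1-1* replicate 1 (0.0205) and with only the second set (0.0349). *BHLH104*, *BHLH34*, *BHLH115* and *ILR3*, whose factors act above the others, had log2 differences between -0.03 and 0.07 (adjusted p from 0.806 to 0.977).

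Of the 15 genes of storage and iron use, 3 could be named. *NEET*, which encodes an iron-sulfur cluster protein, was at 7.45, 7.46 and 7.73 in WT and at 5.28, 6.15 and 4.46 in *fbs1-1*. The WT mean was 4.76-fold the mutant mean (log2 difference 2.25, adjusted p = 0.0125 from limma), a call lost without WT replicate 2 (0.0505) or 3 (0.0537) and with only the second set (0.0720). Its order among the *fbs1-1* arrays, highest on replicate 2 and lowest on replicate 3, was that of *FSD1*. The mitochondrial iron carrier genes *MIT1* and *MIT2* had log2 differences of -0.07 and 0.04 (adjusted p = 0.882 and 0.925).

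*FSD1* also responds to copper, and of 15 copper genes 2 could be named. *COPT2*, which encodes a copper transporter of root cells known to be raised when copper or iron is short, was at 5.61, 5.77 and 5.53 in WT and at 6.72, 6.73 and 6.79 in *fbs1-1*. It was 2.16-fold higher in *fbs1-1* (log2 difference -1.11, adjusted p = 0.000829 from limma). *CCS*, the copper chaperone gene of copper/zinc superoxide dismutases, differed by -0.14 (log2, adjusted p = 0.575). Of 13 zinc genes 4 could be named. *ZIP11*, of the zinc and iron transporter family, had a WT mean 2.31-fold the mutant mean (log2 difference 1.21, adjusted p = 0.0111 from limma), a call lost without WT replicate 3 (0.0506) or *fbs1-1* replicate 3 (0.0600) and with only the second set (0.0728). *BZIP19*, the regulator of the zinc deficiency response, differed by -0.04 (log2, adjusted p = 0.917), and *ZIP6* by 0.15 (adjusted p = 0.708), while *ZIP9* had means of 1.47 in both genotypes (adjusted p = 0.999).

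**Figure D5:**
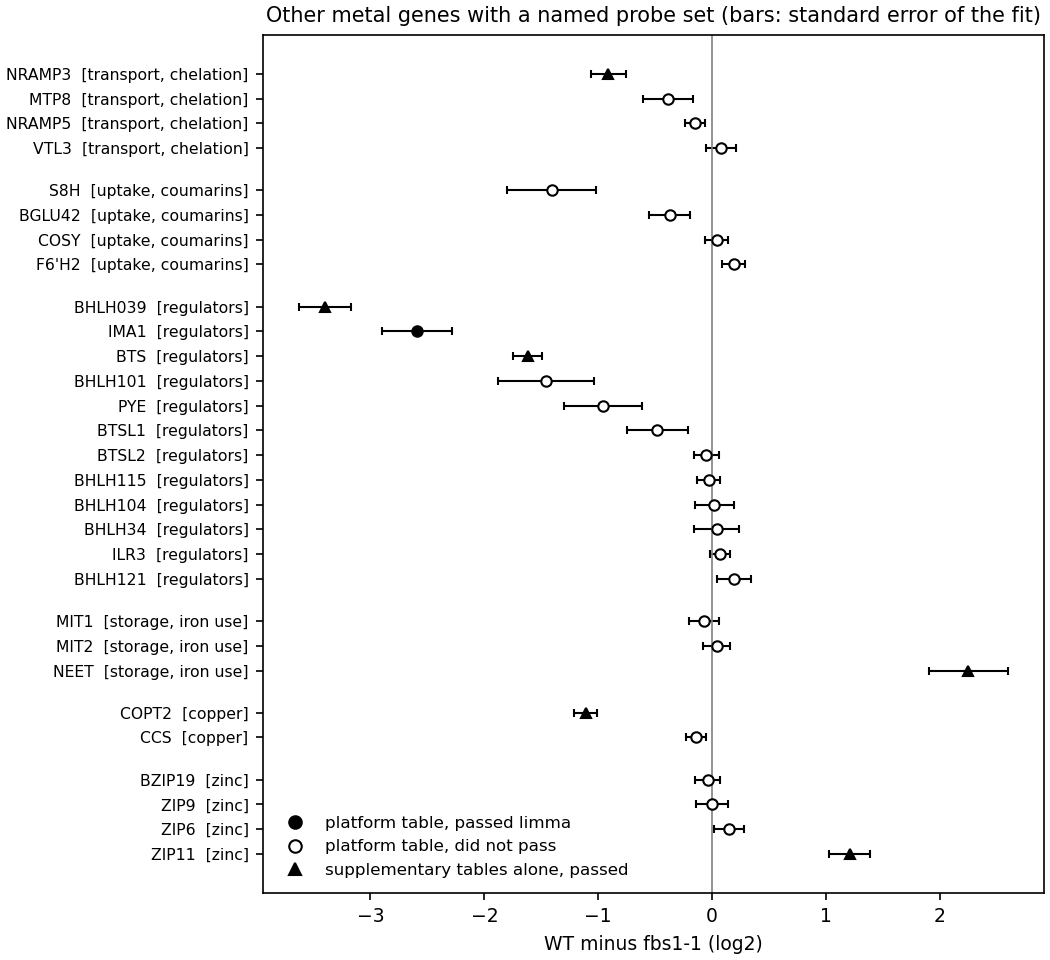
Difference between WT and *fbs1-1* (log2, line: standard error of the fit) for the 29 further metal genes with a named probe set, by list. Filled symbols passed limma and triangles are genes named only through the study's lists of differing genes, which lie at both ends, from -3.40 (*BHLH039*) to 2.25 (*NEET*), while most circles lie near 0.

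Outside the lists, the genes whose profile over the 6 arrays was most like the mean profile of the deficiency-induced genes were AT4G22280 (Pearson's r = 0.992), AT3G06890 (0.988) and *NET3A* (0.987). The search covered 1294 genes named by the platform annotation, without those named only through the study's lists of differing genes. Mutant means of AT4G22280, AT3G06890 and *NET3A* were 1.56-fold, 1.83-fold and 2.90-fold their WT means. The WT means of AT4G22280 (1.66) and *NET3A* (1.90) were under 2, which limits their fold. Most like the sufficiency-induced genes were AT4G37560 (r = 0.991), AT1G59710 (0.988) and AT1G06650 (0.985), with WT means 1.64-fold, 1.84-fold and 2.01-fold their mutant means. Over 6 arrays in 2 groups, such values mostly follow the difference between the groups.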

How the data were processed

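Values were deposited by the authors as log2 intensities after RMA in R (versions not given in the sources used here), 1 column per array and not centred per gene. Without the 64 control probe sets, 22746 remained for limma 3.58.1 in R 4.3.3, with genotype as the only term and Benjamini-Hochberg adjustment over all of them, at an adjusted p under 0.05. Differences are WT minus *fbs1-1*. Arrays have no read depth, and 3 arrays per genotype limit the precision. The limma p-values set a difference between genotypes against the spread of these samples within a genotype, which limma draws toward a common value.

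The platform table names 1 gene for 13513 probe sets, of which 13484 were tied to a locus through RefSeq gene IDs (TAIR10.1). Another 234 were tied through the study's lists of differing genes, used only as a probe map, since their fold changes and rank statistics are the authors' own comparisons. A gene with several probe sets was taken at the one with the highest mean.

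The genes described and all lists were chosen with earlier results of these data known. Named were all 9 genes and, from each list, up to 6 that passed, by size, and up to 4 that did not, by level; *PYE* and *BHLH101* fall outside this rule and were chosen after their values were seen. Profiles were compared over genes named by the platform annotation with an SD of at least 0.3. Rank products used the 9 pairs of arrays and 100 permutations (Python 3.11.15, numpy 2.4.6, pandas 2.3.3). Both tests were tested on simulated data. Alternatives covered scaling, a filter at the 40th percentile, blocks, the variance model and leaving out each array. Figures were drawn with matplotlib 3.10.9. No sequences are printed.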

Additional observations from a re-analysis of the deposited data

How the results depend on the processing

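The direction of the 9 iron genes was fixed by their choice. Of 13 alternatives, *NAS2* passed limma under all, *F6'H1* under none and *FER4* under 6, which is no independent evidence for genes picked from this contrast. Without 1 array, limma called between 1 and 5 of the genes higher in *fbs1-1* and between 0 and 2 higher in WT, and between 4 and 6 and between 0 and 2 of the other metal genes. Over all probe sets these counts were 140 to 319 and 142 to 338, against 382 and 358 with all arrays. With the array set as a block, 650 and 569 probe sets were called. Within the second array set alone, where fewer arrays were fitted, 4 of the iron genes and 6 of the other metal genes were called higher in *fbs1-1*. In that setting 0 of the iron genes and 0 of the other metal genes were called higher in WT. Over all probe sets, 333 were called higher in *fbs1-1* and 288 higher in WT in that setting. Deviations of same-numbered arrays of the 2 genotypes correlated at 0.282, 0.0881 and 0.144 for replicates 1, 2 and 3. The highest correlation of each WT array with an *fbs1-1* array of another number was -0.16, 0.106 and 0.135. Replicate 1 of each genotype, numbered apart from the other arrays, thus deviated together, while replicate 2 was not highest for its own number. With the replicate block, limma called 5 and 2 of the iron genes, as without it, 5 and 2 of the other metal genes, and 541 and 487 probe sets. Rank products, added for the metal lists after the data were seen, called 8 of the other metal genes higher in *fbs1-1*, against 5 by limma, and 2 higher in WT. Probe sets under 2, as for *NAS3* on 2 arrays, have no detection call, which limits their fold.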
